A study of Xenopus tropicalis with 12 samples.

Results

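The core regions are the stretches of the *Xenopus tropicalis* genome in which a TR peak was called in every one of the 12 ChIP-seq libraries of stage 54 hind limb. To find them, peaks of all libraries that overlapped by 1 bp or more were joined into regions, and the regions with at least 1 peak in each library were kept. Of the 189159 joined regions, 1668 met this rule (0.882%), and they held 22159 of the 329457 peaks (6.73%). The regions were thus chosen by the called peaks of these same libraries, so their presence in every library is a description and was not tested.

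TR ChIP was done on chromatin of wild type and TRα (-/-) hind limb, and tadpoles of both genotypes were born from the same parents. The tadpoles were either left without T3 treatment or were given 10 nM T3 for 18 h, so that there were 4 conditions: wild type without T3, wild type with T3, TRα (-/-) without T3 and TRα (-/-) with T3. Each chromatin sample came from hind limbs of at least 5 tadpoles, and each condition was sequenced as 3 libraries that the submitters describe as technical replicates. The spread between libraries, and every test here, therefore covers technical variation and not variation between groups of tadpoles. The knockout removes TRα in the whole animal, while the TRβ gene remains. The lists hold peak positions and strengths without gene names, so neither the tissue nor the genotype could be checked against marker genes.

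TRs are nuclear receptors that bind DNA at thyroid hormone response elements, mostly as heterodimers with the 9-cis retinoic acid receptor RXR. They can sit on these elements in chromatin with or without hormone, recruiting corepressors when T3 is absent and coactivators when it is present. TRα is the form that is widely expressed in premetamorphic tadpoles, and T3 drives the growth of the hind limb. No sequence of the core regions is printed and no response element was searched, because the v9.1 genome on which the peaks were placed was not used here.

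Depth differed between the libraries, from 834029 to 6119057 fragments after filtering, and the lists held 4645 to 42421 peaks. Replicate 2 of TRα (-/-) without T3 was the shallowest and had the shortest list. This library stood apart and shaped the membership. Of the 1741 regions with a peak in 11 libraries, 1249 (71.7%) lacked a peak only there, and 2917 regions had a peak in each of the other 11 libraries. No other library came near this. The first replicates of TRα (-/-) with T3, wild type with T3 and TRα (-/-) without T3 were the only ones missing in 135, 125 and 118 regions, and each of the other 8 libraries in 2 to 29. A region outside the core is one without a called peak at the depth of at least 1 library, and the 11-library regions lay just outside the rule. At the median they were 1060 bp long against 1088 bp for the core, their median peak length 685 bp against 790.5 bp, and the median of their mean position in the lists was the 80.9 percentile against 90.3, where 100 is the strongest peak of a list. Regions with a peak in a single library were 219 bp long at the median and lay at the 32.6 percentile.

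The core regions were short. Their median length was 1088 bp, with quartiles of 757 and 1668 bp, and together they covered 2335 kb. The shortest was 241 bp long. The longest, chr7:97149157-97162360, reached 13204 bp and joined 64 peaks, so its length reflected several neighbouring peaks rather than one. In most core regions the peaks stood one to one, since 1193 of the 1668 regions (71.5%) held exactly 1 peak from each library. The strongest peaks of the 12 libraries had at least 1 bp in common in 1343 regions (80.5%), and this common stretch was 372 bp long at the median. Over libraries, the median peak length in the core was 779 ± 121 bp (SD, n = 12 libraries). The shallowest library had the shortest median, 489 bp, and the deepest the longest, 918.5 bp.

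The summits, the positions of highest pileup, were close to one another in strong regions and scattered in weak ones. From the strongest peak of each library, the distance between the outermost of the 12 summits was 390.5 bp at the median, with quartiles of 143 and 761 bp. All 12 summits fell within 50 bp of one another in 168 regions (10.1%), within 100 bp in 315 (18.9%) and within 1000 bp in 1377 (82.6%). The summit of a single library lay 37.0 ± 11.2 bp (SD, n = 12 libraries) from the median summit of the region in the typical case. This distance is by construction smaller than the range of all 12 summits. To relate position to strength, each library's core regions were ranked by the −log10 p-value that the peak caller gave to their strongest peak, and the rank was written as a percentile, where 100 is the strongest core region of that library. The regions were then divided by their mean percentile into 4 strength classes of 417. From the weakest to the strongest class, the median summit range narrowed from 756 to 466, 284 and 99 bp. Summits of all libraries fell within 100 bp of one another in 0.480% of the weakest class and in 51.1% of the strongest. Region length went the same way, from 1428 bp in the weakest class to 897 bp in the strongest, whereas the length of single peaks stayed between 780.5 and 854.5 bp. Strong core regions thus had sharper positions over libraries and more often 1 peak in each library (86.1% against 48.9% in the weakest class).

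**Figure D1:**
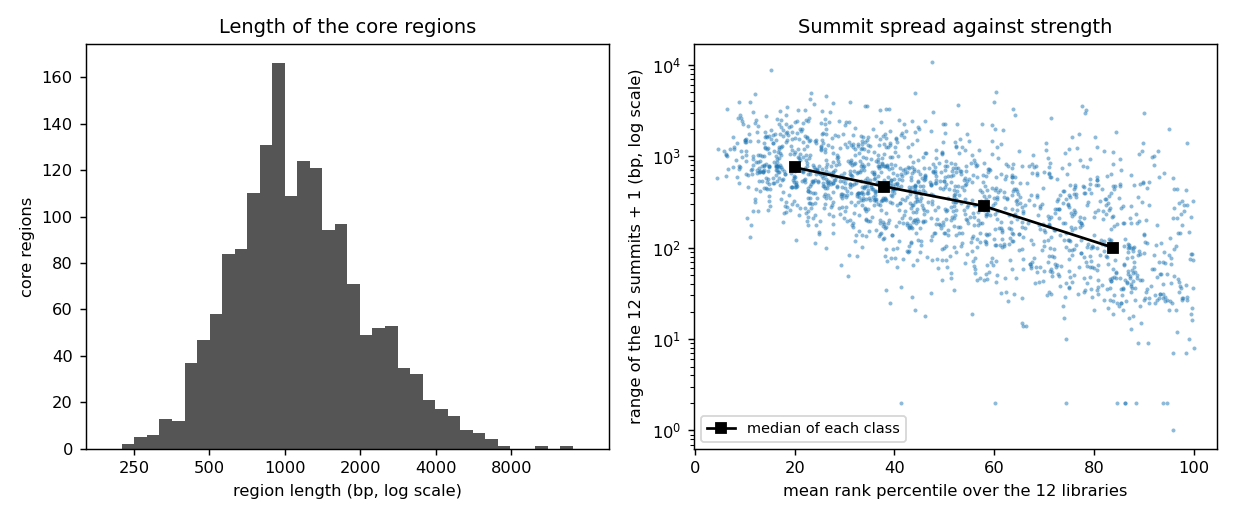
Left, number of core regions by region length (bp, log scale). Right, each point is a core region, with its mean rank percentile over the 12 libraries and the range of its 12 summits (bp plus 1, log scale), and squares mark the median of each strength class. The median summit range narrows from 756 bp in the weakest class to 99 bp in the strongest.

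The core regions were found on all 10 chromosomes but were not spread evenly. On chromosome 1 there were 0.913 core regions per Mb, on chromosome 9 there were 1.9 and on chromosome 10, the shortest, 3.35. The density of all joined regions varied less, between 141 and 187 per Mb, so that core regions made up 0.637% of the joined regions of chromosome 1 and 1.80% of those of chromosome 10. Chromosome 10 held 134 core regions, which were 8.03% of the core, compared with 3.41% of the regions found in 1 library and 5.21% to 7.76% of those found in 2 to 11 libraries. These regions were somewhat shorter than elsewhere, with a median of 970 bp on chromosome 10 against 1036 to 1209.5 bp on the others. Whether sequence composition or gene density differs between these chromosomes was not examined.

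**Figure D2:**
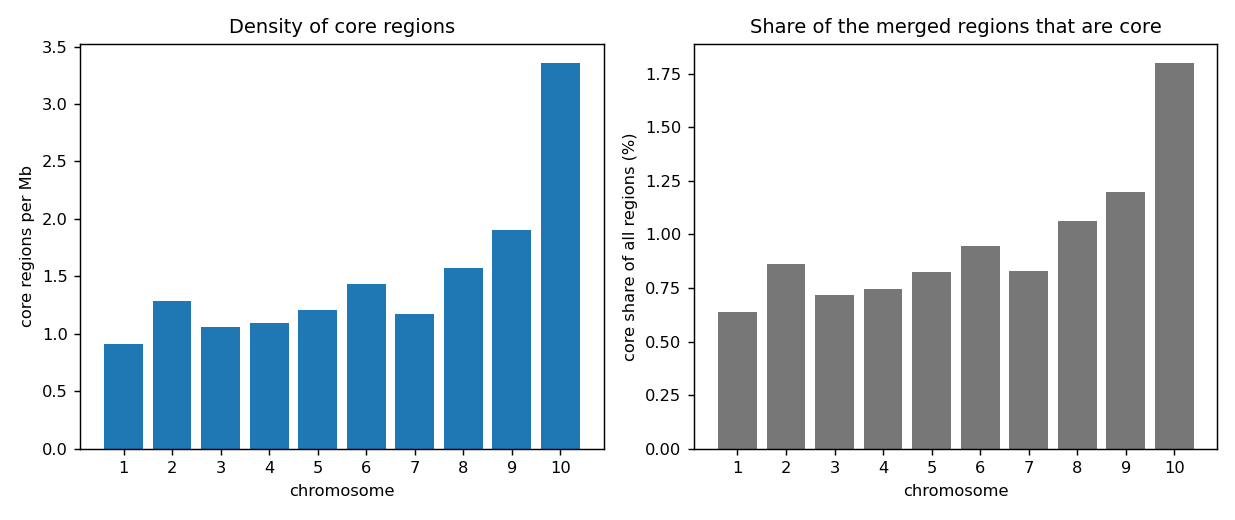
Left, core regions per Mb of each chromosome, measured to its last peak. Right, the share of all joined regions of a chromosome that were core regions (percent). Both are highest on chromosome 10, at 3.35 per Mb and 1.80%, and lowest on chromosome 1, at 0.913 per Mb and 0.637%.

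Neighbouring core regions on the same chromosome lay 134 kb apart at the median, with quartiles of 39.4 and 441 kb, and the widest gap was 37166 kb. Of the 1658 neighbouring pairs, 157 were less than 10 kb apart and 24 less than 1 kb. When the genome was cut into bins of 200 kb, 3 bins held 8 or more core regions. The fullest, with 13, was on chromosome 2, and the next, with 12 core regions between positions 97806133 and 97971641, was on chromosome 8. The third, on chromosome 4, held 8 between 72452756 and 72504858.

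A peak in all 12 lists, one of them with 4645 peaks, is by construction mostly a strong peak. The core took 4.56% to 38.4% of all peaks of a list, which depended on the length of the list, but it took 66.7% to 81.0% of the 1000 strongest. For wild type without T3, the share of the 1000 strongest peaks was 68.2%, 70.9% and 70.5% in replicates 1, 2 and 3, and for wild type with T3 66.7%, 68.1% and 69.2%. For TRα (-/-) without T3 it was 73.1%, 81.0% and 78.1%, and for TRα (-/-) with T3 70.0%, 74.6% and 74.3%. At this cutoff all TRα (-/-) libraries of a treatment were above all wild type libraries of that treatment. With T3 the genotypes overlapped among the 500 strongest peaks, with TRα (-/-) replicate 1 at 81.4% and wild type replicate 3 at 82.0%. The same libraries overlapped among the 2000 strongest, at 50.9% and 53.6%. Without T3 the lowest TRα (-/-) and the highest wild type library were both at 54.65% among the 2000 strongest. The share was 7.53 percentage points higher in TRα (-/-) than in wild type without T3 and 4.97 points higher with T3. Between libraries with and without T3 it differed by −1.87 points in wild type and by −4.43 points in TRα (-/-), with overlap in both genotypes. Membership was set by the peaks of these same lists, and most of all by the shortest, which had the highest share, so these differences are a description and no test of them is given.

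The median height of the core peaks, scaled to 1000000 fragments of a library (FPM), separated the 4 conditions in the order wild type without T3, TRα (-/-) without T3, wild type with T3 and TRα (-/-) with T3. For wild type without T3, the median summit pileup over the 1668 regions was 7.47, 6.92 and 6.70 FPM. With T3 it was 9.47, 9.86 and 9.53. In TRα (-/-) without T3 it was 8.14, 8.39 and 8.67, and with T3 10.6, 10.9 and 10.2 FPM. By this median, no libraries of different conditions overlapped. With T3 the median was 1.37 times as high in wild type (by 2.59 FPM) and 1.26 times as high in TRα (-/-) (by 2.17), and in TRα (-/-) it was 1.19 times as high without T3 (by 1.37) and 1.10 times as high with T3 (by 0.951) as in wild type. Each of these 4 comparisons gave the smallest p that 3 against 3 libraries allow (exact two-sided permutation p = 0.1, adjusted p = 0.1), so none could pass 0.05. The T3 difference was smaller in TRα (-/-) than in wild type by 0.417 FPM (exact permutation p = 0.62). Membership was set by the peaks of these same lists, most of all by the shortest, a list of TRα (-/-) without T3. These p-values are therefore a description and do not test a difference between conditions. The wild type libraries without T3 were also the deepest, and the lowest pileup of a list, which sets what can be called, ranged from 0.817 FPM in the deepest library to 3.6 in the shallowest. Wild type without T3 replicate 1 (3080104 fragments) was at 7.47, TRα (-/-) without T3 replicate 3 (3000220 fragments) at 8.67 and TRα (-/-) with T3 replicate 3 (2851627 fragments) at 10.2 FPM. These are single libraries, and the part of depth in the pileup was not tested. The fragments of these 3 libraries were 152, 200 and 224 bp long, in the order of their pileups, and the part of fragment length in the pileup was not tested. Measured by the median fold enrichment over the local background, the T3 difference in wild type was −2.69 and the genotype difference without T3 −3.50, opposite in sign to the pileup. Fold enrichment is taken from unscaled fragments, and its median was 5.84 in the shallowest library and 12.7 in the deepest. The part of depth in these differences was not tested. When the mean over regions replaced the median, the genotype difference in pileup without T3 was 0.0777 FPM.

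**Figure D3:**
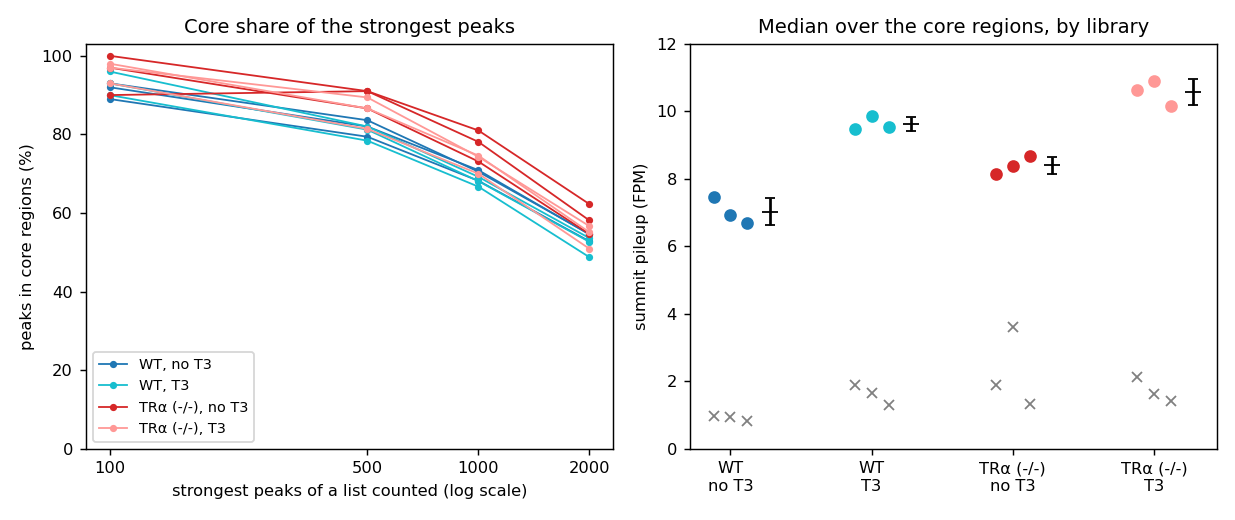
Left, share of the strongest peaks of each library that lay in core regions (percent) against the number of strongest peaks counted (log scale), 1 line a library. Right, median summit pileup over the 1668 core regions in FPM, 1 filled point a library, bars for the mean ± SD of 3 libraries, and crosses for the lowest pileup in the list of that library. The filled points of the 4 conditions do not overlap, and the crosses range from 0.817 to 3.6.

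At the top of the order the same regions led in every library. The 6 core regions with the highest mean percentile were chr8:23529074-23530255, chr5:35928540-35930451, chr10:16969891-16970789, chr8:23523128-23524077, chr4:52501688-52502286 and chr3:110350624-110351513. Their percentile varied by at most 0.18 over the 12 libraries, and chr4:52501688-52502286 was the steadiest of all core regions, with a range of 0.06. The first and the fourth lay less than 5 kb apart on chromosome 8. The range of the 12 summits was 7 bp for chr8:23529074-23530255, 21 bp for chr3:110350624-110351513 and 35 bp for chr10:16969891-16970789. It was 73 bp for chr5:35928540-35930451 and 85 bp for chr4:52501688-52502286, but 327 bp for chr8:23523128-23524077. The summit pileup of chr8:23529074-23530255 was 701, 672 and 564 FPM for wild type without T3 and 802, 837 and 875 with T3. In TRα (-/-) it was 504, 390 and 440 without T3 and 1173, 1089 and 1093 with T3. For this region no libraries of different conditions overlapped, with TRα (-/-) without T3 lowest and TRα (-/-) with T3 highest. In each of the 6 regions the 3 libraries of TRα (-/-) with T3 were above all other libraries in pileup in FPM, which their rank, at the ceiling, does not show. No control library entered the peak calling, so the part of signal that does not depend on the antibody was not tested.

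The least steady core region was chr4:2137876-2139776. Its percentile was 19.7, 29.4 and 49.4 for wild type without T3 and 37.9, 42.0 and 52.2 with T3. It was 95.3, 72.0 and 88.6 for TRα (-/-) without T3 and 0.21, 29.7 and 62.0 with T3, a range of 95.1 over the libraries. The widest spread was within TRα (-/-) with T3, where the pileups were 3, 13 and 37 fragments. Over all core regions the percentile range was 46.3 at the median. By strength class it was 42.5 in the weakest, 56.9 and 55.4 in the middle classes and 25.3 in the strongest.

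The order of the core regions was most alike among the wild type libraries without T3 and least alike between TRα (-/-) without T3 and the other conditions. These are Spearman correlations over the same 1668 regions, given as a description, and the regions of a library share its depth. Within conditions the mean over library pairs was 0.879 for wild type without T3, 0.762 for wild type with T3, 0.727 for TRα (-/-) without T3 and 0.784 for TRα (-/-) with T3. Between conditions it was 0.807 for wild type without and with T3, 0.791 for wild type without T3 and TRα (-/-) with T3, and 0.751 for both genotypes with T3. It was 0.652 between the genotypes without T3, 0.614 between wild type with T3 and TRα (-/-) without T3, and 0.669 between TRα (-/-) without and with T3. All 3 values that involve TRα (-/-) without T3 were thus the lowest of the 6. The deepest library of TRα (-/-) without T3, replicate 3 (3000220 fragments), correlated at 0.67 to 0.71 with the wild type libraries without T3. For TRα (-/-) with T3 replicate 3 (2851627 fragments) these values were 0.81 to 0.83. The part of depth in the correlations was not tested.

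**Figure D4:**
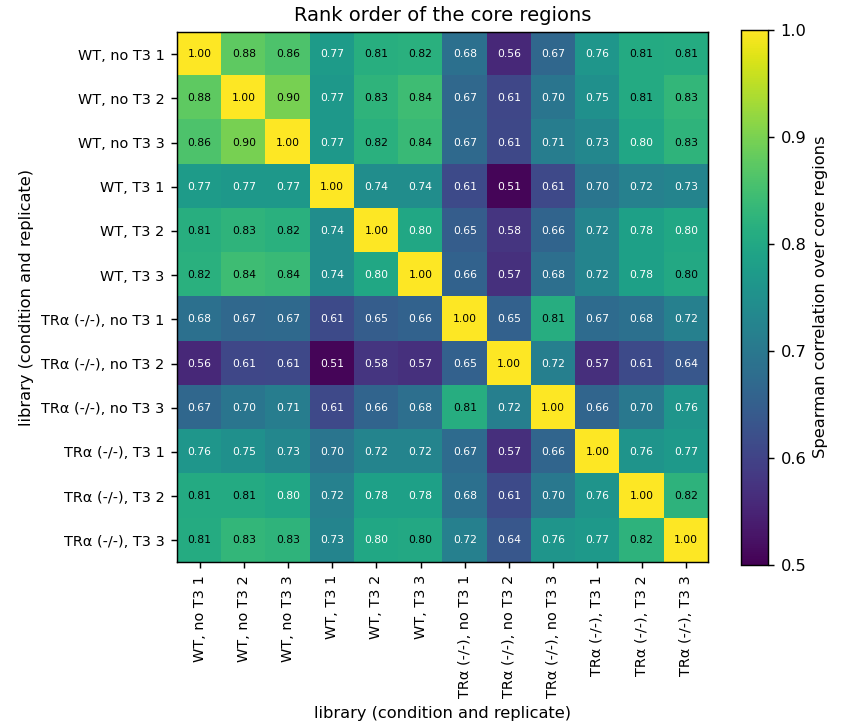
Spearman correlation of the rank order of the 1668 core regions between each pair of the 12 libraries, with the libraries in the same order on both axes and yellow for 1. Rows and columns of TRα (-/-) without T3 are darkest outside their own condition, with means of 0.652, 0.614 and 0.669 against the other conditions.

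To ask which core regions changed their place, the rank percentiles were fitted with limma as 4 condition means, and p-values were adjusted by the Benjamini-Hochberg method over the 1668 regions. A rank is relative, so a region can rise only as others fall, and changes shared by all core regions do not appear. The genotype comparison without T3 had the most changes: 173 core regions passed an adjusted p of 0.05 (10.4% of those tested), 83 of them higher (4.98%) and 90 lower (5.4%) in TRα (-/-). With T3 in TRα (-/-), 73 regions (4.38%) changed, of which 47 were higher (2.82%) and 26 lower (1.56%). With T3 in wild type 1 region (0.06%) changed, and between the genotypes with T3 2 regions (0.12%) changed. The counts at an unadjusted p of 0.05 were 452, 378, 85 and 158, in the same order. The effect of T3 differed between the genotypes in 19 regions (1.14%), with the larger rise or smaller fall in TRα (-/-) in 17 of them (1.02%). The first and the second comparison share the libraries of TRα (-/-) without T3. Since all the tested regions were core regions, these percentages are also the background. Membership was set by the peaks of these same lists, most of all by the shortest, a list of TRα (-/-) without T3. A region weak in that condition could thus drop out of the core before it was ranked. The counts of rank changes and the limma p-values, here and below, are therefore a description. To give a wider background, 5098 regions that 2 or 3 libraries of every condition had called were ranked in the same way. Regions without a peak in a library were tied below all its called ones, and all took the mean of those lowest ranks. Of the 5098 regions, 2.18% passed between the genotypes without T3 (0.628% higher and 1.55% lower), 0.843% with T3 in TRα (-/-) (0.726% higher), 0.0392% with T3 in wild type and 0.0196% between the genotypes with T3. The core regions among them gave 64, 25, 1 and 1 calls.

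The count between the genotypes without T3 was sensitive to the wild type libraries. It was 81, 80 and 90 when replicate 1, 2 or 3 of wild type without T3 was left out, and 131 to 189 without any single library of the other conditions. That of T3 in TRα (-/-) was 44, 44 and 41 without replicate 1, 2 or 3 of TRα (-/-) with T3, and 50 to 58 without any single library of wild type without T3. It was only 9 (6 higher and 3 lower) in a fit on the TRα (-/-) libraries alone, without the spread of the wild type libraries. For the genotypes without T3, a fit on only those 2 conditions gave 168 (102 higher and 66 lower). When the shallow replicate 2 of TRα (-/-) without T3 was left out, the 2 counts were 163 (66 higher and 97 lower) and 76 (59 higher and 17 lower). Their members changed more than the totals, since only 126 of the 173 and 51 of the 73 calls of the full fit were among them.

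Regions that were lower in TRα (-/-) without T3 were strong ones, with a median mean percentile of 79.0, while those that were higher stood at 51.9. The strongest class held 84 of the 173 and the weakest 12. Those that rose with T3 in TRα (-/-) had a median of 87.2 and those that fell 63.4. The mean percentile includes the libraries that define a call, and a percentile is bounded at both ends. These contrasts in strength therefore follow in part from the calling itself and are only a description. The typical size of a called change without T3 was 38.0 percentile points up and 31.8 points down, compared with 11.2 points in size over all core regions. Called regions were present on each of the 10 chromosomes, from 6.19% of the core regions of chromosome 6 to 14.6% of those of chromosome 2, where 10 of the 32 calls lay within 83.6 kb. Without that stretch, chromosome 2 was at 10.7% and chromosome 10 the highest at 13.4%.

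Of the regions higher in TRα (-/-) without T3, chr1:13569479-13570192 and chr1:6855194-6855456 had the lowest adjusted p. The percentile of chr1:13569479-13570192 was 70.7, 71.0 and 70.0 for wild type and 95.7, 95.4 and 93.2 for TRα (-/-) without T3, and with T3 it was 78.7, 72.2 and 83.2 for wild type and 91.5, 91.5 and 92.7 for TRα (-/-). The genotypes did not overlap with either treatment. Without T3 the difference was 24.2 ± 2.85 points (SE, limma adjusted p = 0.000243), and with T3 it was 13.8 ± 2.85 (limma adjusted p = 0.0884). In pileup the region stood at 9.38 ± 0.598 FPM in wild type and 27.1 ± 3.54 in TRα (-/-) without T3 (SD, 3 libraries each). Its summits fell within 25 bp in all 12 libraries. The other, chr1:6855194-6855456, is only 263 bp long and stood at 73.0 ± 2.88 in wild type and 95.7 ± 0.572 in TRα (-/-) without T3 (SD, 3 libraries each), a difference of 22.7 ± 2.99 points (SE, limma adjusted p = 0.000616), with a pileup of 9.81 ± 0.257 and 28.1 ± 2.44 FPM. With T3 its difference was 11.2 ± 2.99 points (limma adjusted p = 0.168).

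Lower in TRα (-/-) without T3, by the lowest adjusted p, were chr2:102126308-102127461 and chr2:102155968-102158784, which also rose most clearly with T3 in TRα (-/-). The percentile of chr2:102126308-102127461 was 97.1, 95.9 and 93.4 for wild type without T3 and 97.6, 98.1 and 98.3 with T3. For TRα (-/-) it was 60.8, 69.3 and 63.1 without T3 and 96.0, 93.3 and 93.6 with T3. Only the TRα (-/-) libraries without T3 stood apart. The difference between the genotypes was −31.1 ± 2.24 points without T3 (limma adjusted p = 8.74e-06) and −3.70 ± 2.24 with T3 (adjusted p = 0.651), and T3 raised the region by 29.9 ± 2.24 points in TRα (-/-) (adjusted p = 1.26e-05). In pileup it stood at 106 ± 24.6 and 177 ± 12.1 FPM in wild type without and with T3 and at 33.1 ± 3.80 and 126 ± 10.5 in TRα (-/-). The same pattern was present in chr2:102155968-102158784, with mean percentiles of 97.5, 98.5, 63.7 and 96.5 in the same order of conditions, a genotype difference without T3 of −33.8 ± 2.66 (adjusted p = 9.31e-06) and a T3 difference in TRα (-/-) of 32.8 ± 2.66 (adjusted p = 1.26e-05). The size of these moves depends on ranking by p-value. Ranked by summit pileup, both regions stayed near the top, with genotype differences without T3 of −3.35 and −1.70 points (limma adjusted p = 0.00319 and 0.0379) and T3 differences in TRα (-/-) of 3.71 and 1.76 points (limma adjusted p = 0.00379 and 0.0474). Ranked by fold enrichment, the genotype difference of these regions was 9.49 and 0.520 points and the T3 difference in TRα (-/-) −3.18 and 2.56 points, and none passed.

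Both regions belong to the fullest 200 kb bin, which was singled out after its values were seen. Its 13 core regions lay in 83.6 kb of chromosome 2, from 102075182 to 102158784. All of them had less pileup in FPM in TRα (-/-) than in wild type without T3, with ratios of 0.257 to 0.462 and a median of 0.327, whereas the median ratio over all core regions was 1.19. By rank 10 of the 13 were lower in TRα (-/-) without T3 and 9 were higher with T3 in TRα (-/-). Ranked by summit pileup these counts were 9 and 8, with median differences of −2.69 and 2.66 points, and ranked by fold enrichment they were 0 and 0. Ranked by p-value but fitted on only the 2 conditions compared, the counts were 9 and 3. Both comparisons share the libraries of TRα (-/-) without T3. The median pileup over the 13 regions was 140, 118 and 102 FPM for wild type without T3 and 187, 185 and 184 with T3. In TRα (-/-) it was 45.1, 30.0 and 45.0 without T3 and 138, 121 and 140 with T3. TRα (-/-) without T3 was thus lowest in every library, and the other TRα (-/-) libraries lay in the range of wild type without T3. With T3 the pileup of the 13 was 1.87 to 3.95 times that without T3 in TRα (-/-), with a median of 3.52 against 1.29 over all core regions. In wild type it was 1.01 to 1.67 times, against a median of 1.37 over all core regions. The 13 had far more pileup than the typical core region, so these medians are no background of like strength. For the 10 core regions with the highest mean percentile, the median pileup was 281, 297 and 233 FPM in wild type without T3 and 266, 345 and 293 with T3. In TRα (-/-) it was 215, 237 and 235 FPM without T3 and 397, 450 and 378 with T3. Not every neighbour moved in rank: chr2:102114157-102116842, among the strongest 12 core regions, kept percentiles of 98.4 to 99.4 in all libraries, while its pileup was 227 ± 17.3 FPM in wild type and 97.8 ± 8.50 in TRα (-/-) without T3 (SD, 3 libraries each).

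**Figure D5:**
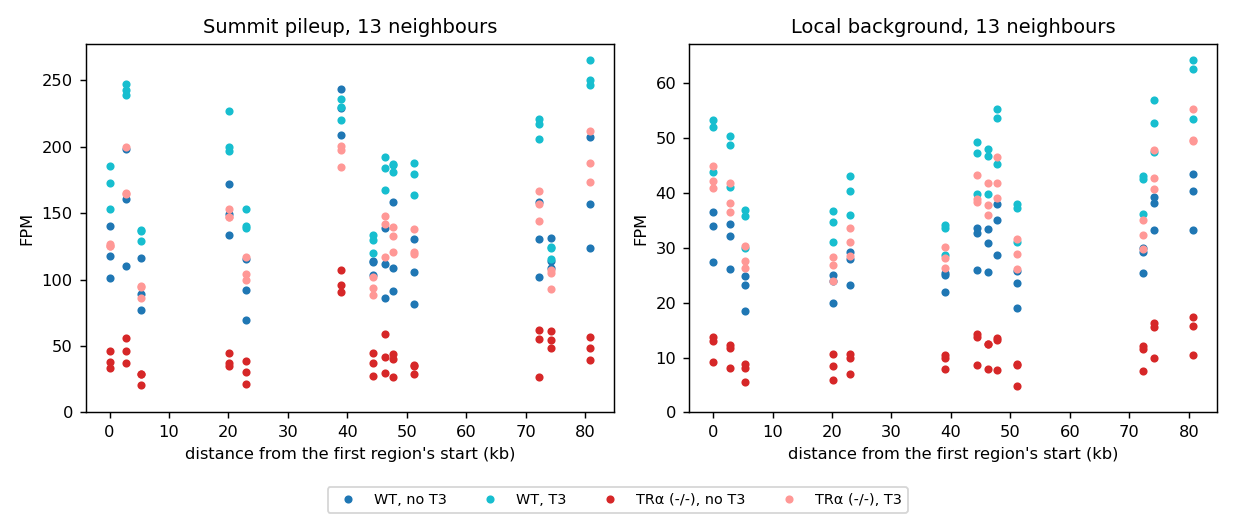
Summit pileup (left) and local background (right) of the 13 neighbouring core regions of chromosome 2, in FPM, against the distance of each region from the start of the first (kb), with 1 point a library coloured by condition. The libraries of TRα (-/-) without T3 lie below the others in both panels, with ratios to wild type without T3 of 0.257 to 0.462 in pileup.

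The surroundings of these 13 regions moved with them, and without a control library a difference in TR binding and one in the amount of DNA recovered from this stretch cannot be told apart. The local background, which the peak caller takes from the fragments of the same library within 10000 bp and which therefore includes the peak and its neighbours, was 30.0 FPM at the median of the 13 for wild type without T3 and 44.8 with T3, and 10.7 and 38.5 for TRα (-/-) without and with T3. Over all core regions it was 0.321, 0.409, 0.373 and 0.511. The median fold enrichment of the 13 was 4.64, 3.81 and 3.97 for wild type without T3 and 4.54, 3.79 and 3.80 with T3. In TRα (-/-) it was 3.48, 3.42 and 3.30 without T3, below all wild type libraries, and 4.03, 3.38 and 3.38 with T3. Core regions with at least 10 times the median background were rare, 48 of 1668 (2.88%), and 17 of them were among the 50 strongest. The span held 15 to 31 peaks in each library, and the adjoining 100 kb held 0 to 5. Such a difference over a whole span was not seen in the other full bins, where the median ratio of TRα (-/-) to wild type without T3 was 0.900 on chromosome 8 and 1.05 on chromosome 4, with 1 and 0 regions called. Without the 13 regions the calls were 163 between the genotypes without T3 (83 higher and 80 lower) and 64 for T3 in TRα (-/-).

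Regions that fell with T3 in TRα (-/-) included chr6:129815061-129816039 and chr7:13823237-13823757, those with the lowest adjusted p among regions whose libraries did not overlap. The percentile of chr6:129815061-129816039 was 93.3, 90.5 and 85.5 without T3 and 63.9, 65.9 and 63.3 with T3, and the libraries were well apart. The difference was −25.4 ± 3.76 points (SE, limma adjusted p = 0.00222), and the pileup was 20.6 ± 3.89 and 12.9 ± 0.171 FPM. In wild type the region stood at 82.4 ± 2.89 without T3 and 80.4 ± 4.67 with T3. For chr7:13823237-13823757 the difference in TRα (-/-) was −21.0 ± 3.35 points (limma adjusted p = 0.00376), from 94.4 ± 1.47 to 73.4 ± 4.59, and in wild type −7.38 ± 3.35 (limma adjusted p = 0.933). The difference in T3 effect between the genotypes did not pass in either region. Its limma interaction adjusted p was 0.0601 for chr6:129815061-129816039 and 0.185 for chr7:13823237-13823757.

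A single region, chr7:663397-664217, changed with T3 in wild type, and it fell. Its percentile was 91.6, 79.4 and 84.9 without T3 and 37.4, 42.4 and 46.4 with T3. In TRα (-/-) it was 80.7, 66.2 and 72.9 without T3 and 92.4, 90.1 and 87.9 with T3, so that the genotypes went apart with T3. The difference with T3 was −43.2 ± 5.74 points in wild type (SE, limma adjusted p = 0.00871) and 16.9 ± 5.74 in TRα (-/-) (adjusted p = 0.106). Between the genotypes it was 48.0 ± 5.74 points with T3 (adjusted p = 0.00283) and −12.0 ± 5.74 without T3 (adjusted p = 0.199). In wild type the pileup was 77, 62 and 94 fragments without T3 and 8, 16 and 20 with T3, at lower depth, which scales to 18.4 ± 5.73 and 8.34 ± 0.659 FPM, and in TRα (-/-) it was 14.5 ± 2.46 and 30.3 ± 4.45. The T3 difference in wild type did not pass without wild type without T3 replicate 1 (−40.1 points) or replicate 3 (−43.4 points), in a fit on the wild type libraries alone (limma adjusted p = 0.246), or ranked by fold enrichment (−34.1 points, limma adjusted p = 0.408), and its adjusted p over all alternatives ranged from 0.000309 to 0.408. Its genotype difference with T3 did not pass in a fit on the libraries with T3 alone or without replicate 2 of all conditions. Nor did it pass ranked by fold enrichment (39.6 points, limma adjusted p = 0.193). The other region that differed between the genotypes with T3 was chr2:90805603-90807541, which stood at 91.5, 95.1 and 93.8 in wild type and at 75.3, 78.6 and 77.5 in TRα (-/-). Its difference was −16.3 ± 2.69 points (limma adjusted p = 0.0393). This call was lost when any 1 of the libraries of wild type without T3, wild type with T3 or TRα (-/-) with T3 was left out, with differences of −15.3 to −17.3 points.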

How the data were processed

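TR ChIP-seq peak lists of 12 libraries (4 conditions, 3 technical replicates each, grouped by the sample labels) were analyzed. The authors used Bowtie2 2.3.4.1 for alignment (Xenbase genome v9.1), Samtools to discard duplicates and MACS2 2.1.1.20160309 for peak calling in each library alone, without a control (paired-end, q value cutoff 0.05, local background over 10000 bp). The deposited values, as the authors' caller gave them, are positions in bp, pileup at the summit (signal, unscaled fragment number), −log10 of p-value and q-value, and fold enrichment. Fold enrichment is the ratio of pileup to local background in unscaled fragments, after the same small constant is added to both. It therefore depends on depth as well. Depth is the number of fragments after filtering in the file headers.

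Peaks sharing at least 1 bp were joined with Python 3.11.15 (numpy 2.4.6, pandas 2.3.3, scipy 1.17.1). A library's strongest peak in a region (by −log10 p-value, ties by pileup) gave its summit, pileup and rank. The local background was recovered from pileup and fold enrichment, and 99.96% of 5000 checked p-values followed from it within 1%. Rank percentiles were fitted with limma 3.58.1 (R 4.3.3, trend), as a description, and p-values were adjusted by Benjamini-Hochberg over 1668 regions. The median pileup of the libraries was compared by exact permutation, two-sided, as a description. On simulated ranks for the genotype comparison without T3 (1668 regions), 74 of 200 moved regions and 3 unmoved ones were called. All moved regions were shifted by the same size, and the noise was independent, with the same spread for all regions of a library. Spread that differs between regions was not simulated, nor were regions that move together. The simulated counts therefore do not give the power or the false calls of the real comparison.

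Regions named are the 6 with the highest mean percentile, the 2 with the lowest adjusted p per contrast and direction among non-overlapping groups (for the interaction, by adjusted p alone), the steadiest and least steady, and the longest and widest in summits. The chromosome 2 neighbours and the other full bins were added after their values were seen. The core regions, the rules and the lists were chosen with earlier results of these data known. Alternatives were stricter peaks, other merging, strength measures, scales, tables, weights, the replicate block and left-out libraries. Peaks were not assigned to genes, and the motif step was not run.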

Additional observations from a re-analysis of the deposited data

Results flagged for a closer look

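The effect of T3 on rank differed between the genotypes in 19 of the 1668 core regions (1.14%, limma interaction, adjusted p below 0.05, 251 at an unadjusted p of 0.05), with a larger rise or smaller fall in TRα (-/-) in 17 and the opposite in 2. In the wider table of 5098 regions 1 passed (0.0196%). Of the 19 regions, 13 lay outside the chromosome 2 neighbours. For chr7:663397-664217, where the percentile fell with T3 in wild type and not in TRα (-/-), the T3 effect was 60.1 points higher in TRα (-/-) (SE 8.12, limma adjusted p = 0.00209). This call was lost when regions were ranked by fold enrichment, where 0 core regions passed.

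In 6 of the chromosome 2 neighbours the T3 effect was higher in TRα (-/-). The difference was 27.4 points for chr2:102126308-102127461 and 31.8 for chr2:102155968-102158784 (limma adjusted p = 0.000811 for both). Both calls were lost when regions were ranked by summit pileup (3.15 points, adjusted p = 0.0833, and 1.60 points, adjusted p = 0.263), in the wider table (adjusted p = 0.073 for both) and when ranked by fold enrichment. Of all 13 neighbours 0 passed by pileup rank, while 13 passed with centred log2 pileup in FPM. It was 31.4 for chr2:102075182-102076623 (adjusted p = 0.0367), 21.4 for chr2:102078003-102079618 (adjusted p = 0.0405), 44.7 for chr2:102080489-102082374 (adjusted p = 0.0378) and 24.9 for chr2:102095284-102097831 (adjusted p = 0.0128). In all 6 the mean percentile of wild type was above 90 with and without T3.

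For chr2:155159732-155160323 the T3 effect in TRα (-/-) differed by −60.1 points from that in wild type (SE 12, limma adjusted p = 0.0367). Its percentile was 58.8, 55.2 and 53.9 in wild type and 79.9, 87.0 and 88.3 in TRα (-/-) without T3, and 69.1, 59.8 and 69.3 in wild type and 23.5, 43.7 and 37.9 in TRα (-/-) with T3, so the genotypes changed places. For chr4:3282575-3284009 the T3 effect differed by −66.8 points (SE 14.2, adjusted p = 0.0435), with pileups of only 5 to 33 fragments and mean percentiles of 10.5, 29.5, 56.5 and 8.74 in wild type without and with T3 and TRα (-/-) without and with T3. Leaving out 1 library ended the call for chr2:155159732-155160323 with any wild type library, TRα (-/-) without T3 replicate 3 or TRα (-/-) with T3 replicate 1 or 3 (differences −54.4 to −63.3). It ended the call for chr4:3282575-3284009 with any wild type library but replicate 3 with T3, with replicate 2 or 3 of TRα (-/-) without T3, and with replicate 1 or 3 of TRα (-/-) with T3 (−61.3 to −70.2).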

How the results depend on the processing

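The number of core regions was 1050 with peaks at a q value below 0.001, 653 when the peaks of each library had to cover 50% of a region and 900 with lists of equal length (4645 peaks), where the summit distance was 22.3, 18.5 and 18.8 bp. With 1 library left out it was 1668 to 2917, the latter without TRα (-/-) without T3 replicate 2. In wild type the T3 difference in the share of the 1000 strongest peaks was 0.0667 points by pileup and 0.533 by fold enrichment, and those in median fold enrichment were −2.69 for T3 in wild type and −3.50 between the genotypes without T3. Calls are given next for T3 in wild type, T3 in TRα (-/-), the genotypes without T3, the genotypes with T3 and the interaction, where they moved by over 1.5 times. Ranked by fold enrichment they were 0, 24, 105, 0 and 0 (4.44%, 17.3%, 21.3%, 7.61% and 12.1% at an unadjusted p of 0.05, limma). With centred log2 pileup they were 7, 213, 321, 27 and 84. Ranking by pileup gave 120 for T3 in TRα (-/-), and normal scores 5 for T3 in wild type, 131 for T3 in TRα (-/-) and 5 for the genotypes with T3. In the wider table the core regions gave 25, 64, 1 and 1 for the last 4. Library weights gave 33 for the interaction. Fits on only the 2 conditions gave 9 for T3 in TRα (-/-) and 0 for the genotypes with T3 (150 unadjusted). In the stronger 50% of core regions, chosen after seeing the data, they were 2, 134, 9 and 39 when the genotypes without T3 are left aside. With 1 library, or replicate 2 of all conditions (added after seeing the data), left out they ranged from 0 to 1, 30 to 78, 52 to 189, 0 to 3 and 4 to 33, and the interaction was at most 12 without any library of wild type without T3, without wild type with T3 replicate 2 or without TRα (-/-) with T3 replicate 1 or 3, and 33 without TRα (-/-) without T3 replicate 1 or 2. A lone condition of 2 libraries was fitted with the pooled spread. The replicate block gave 1, 77, 190, 1 and 22 calls. Whether the replicate numbers pair the libraries cannot be told from these values. Deviations of the 18 same-numbered pairs correlated at −0.0146 to 0.198, and 5 exceeded 0.1. The block's exact sign-flip p was 0.25 for the median pileup, the smallest it can give. Ranked by fold enrichment, the interaction was −11.1 for chr2:102126308-102127461 and −2.10 for chr2:102155968-102158784, the T3 difference in TRα (-/-) of the former −3.18, and the genotype differences without T3 9.49 and 0.520. The causes were not tested. Depth limits what a missing peak can say, and the pileup of core regions in the shallow libraries was 2 or 3 fragments at the lowest.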
